A study of Mus musculus with 35 samples.

Results

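The cell cycle genes described here are 46 genes of DNA replication and mitosis, named from a list: 18 of replication and 28 of mitosis. A gene was a member if its symbol equalled a listed symbol, and all 46 were found among the 22830 symbols of each of 2 count tables. Bulk RNA was sequenced from 35 wounds of adult mouse skin in 8 groups. Col5a1CKO mice carry Col1a2CreERT, a Cre recombinase that tamoxifen activates under a fibroblast enhancer of type I collagen, and have both Col5a1 alleles floxed, so that fibroblasts lose the gene for a type V collagen chain around the time of wounding. Their WT littermates have the floxed alleles without the Cre, and both received tamoxifen and a full thickness wound. The first table holds 7 WT and 7 Col5a1CKO wounds at day 14, 3 Col5a1CKO wounds at day 14 injected with cultured WT fibroblasts, and, from day 19, 3 wounds of each genotype. Per the methods, mice given no fibroblasts received PBS as the control, while the labels of the other day 14 libraries say only that the skin was wounded. The titles of the 3 Col5a1CKO libraries from day 19 name no fibroblasts, while another label of the same libraries names WT fibroblasts; the titles were followed. The other table holds 3 groups of 4 wounds at day 14: vehicle-treated WT, vehicle-treated Col5a1CKO, and Col5a1CKO given cilengitide, an inhibitor of alpha v integrins.

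A cell that divides first copies its DNA in S phase and then parts the copies in mitosis. E2F factors switch on the genes of G1 and S phase, among them the cyclins E, the origin licensing factors Cdc6 and Cdt1, the MCM helicase (Mcm2 to Mcm7) and the enzymes that make DNA building blocks. Later, FOXM1 and a complex of B-MYB with the MuvB proteins drive the mitotic genes, such as cyclin B1, Cdk1, the Polo and Aurora kinases and the kinetochore proteins. In skin wounds the dividing cells include keratinocytes that close the surface, hair follicle matrix cells, fibroblasts, endothelial cells and some leukocytes. In a tissue biopsy, fewer cycling cells and less RNA per cycling cell cannot be told apart.

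The 2 classes also differ in their promoters, the DNA next to the start of the gene. A promoter of 250 bases before and 50 bases after the start was listed in RefSeq (build GRCm38.p6) for 39 of the 46 genes, as 41 promoters. They were searched on both strands for TTTGAA, the cell cycle homology region (CHR) that is known from mitotic genes, for CCAAT, and for the E2F-type elements TTCCCGC and TTGGCGC and a further one, TTCGCGC. Read on the other strand, CCAAT is ATTGG, which can share letters with TTGGCGC, and TTGGCGC can share letters with TTCGCGC on the other strand, as in the Mcm6 promoter. TTTGAA stood in 19 of 24 mitosis promoters (79.2%), in 2 of 17 replication promoters (11.8%) and in 17.9% of all 32851 promoters. An E2F-type element stood in 3 of 24 mitosis promoters (12.5%), in 8 of 17 replication promoters (47.1%) and in 8.07% of all. CCAAT stood in 87.5% and 64.7% of the 2 classes and in 37.4% of all. A match is a description of letters, not of binding.

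Stretches of 90 bases that end at the base before the start are shown for 8 genes that stand for these patterns, written 5′ to 3′ on the strand of the gene, with every motif searched in capitals. Cdc20, Cdk1, Top2a and Ube2c have TTTGAA or its reverse complement together with CCAAT. Mki67 has an E2F-type element here, and its TTTGAA lies outside the stretch. Mcm6 and Rrm1 have an E2F-type element with CCAAT, and Mcm2 is one of the 2 replication genes with TTTGAA.
Cdc20, chr4:118437344-118437433, minus strand: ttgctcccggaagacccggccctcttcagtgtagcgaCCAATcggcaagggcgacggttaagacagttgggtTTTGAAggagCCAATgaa
Cdk1, chr10:69352913-69353002, minus strand: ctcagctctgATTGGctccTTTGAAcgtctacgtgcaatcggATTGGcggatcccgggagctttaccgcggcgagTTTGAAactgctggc
Top2a, chr11:99024190-99024279, minus strand: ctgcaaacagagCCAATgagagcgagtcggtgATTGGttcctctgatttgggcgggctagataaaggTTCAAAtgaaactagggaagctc
Ube2c, chr2:164769839-164769928, plus strand: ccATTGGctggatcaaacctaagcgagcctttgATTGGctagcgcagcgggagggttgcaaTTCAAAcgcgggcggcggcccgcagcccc
Mki67, chr7:135716380-135716469, minus strand: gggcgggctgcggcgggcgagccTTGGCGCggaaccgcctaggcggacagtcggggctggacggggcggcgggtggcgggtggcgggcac
Mcm6, chr1:128359706-128359795, minus strand: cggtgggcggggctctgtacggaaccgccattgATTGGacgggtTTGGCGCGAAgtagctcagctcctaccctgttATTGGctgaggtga
Rrm1, chr7:102441605-102441694, plus strand: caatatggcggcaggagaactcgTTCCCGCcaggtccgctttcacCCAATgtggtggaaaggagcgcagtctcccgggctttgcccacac
Mcm2, chr6:88898781-88898870, minus strand: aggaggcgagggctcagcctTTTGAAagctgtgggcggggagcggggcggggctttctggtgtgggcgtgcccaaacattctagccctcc

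**Figure D1:**
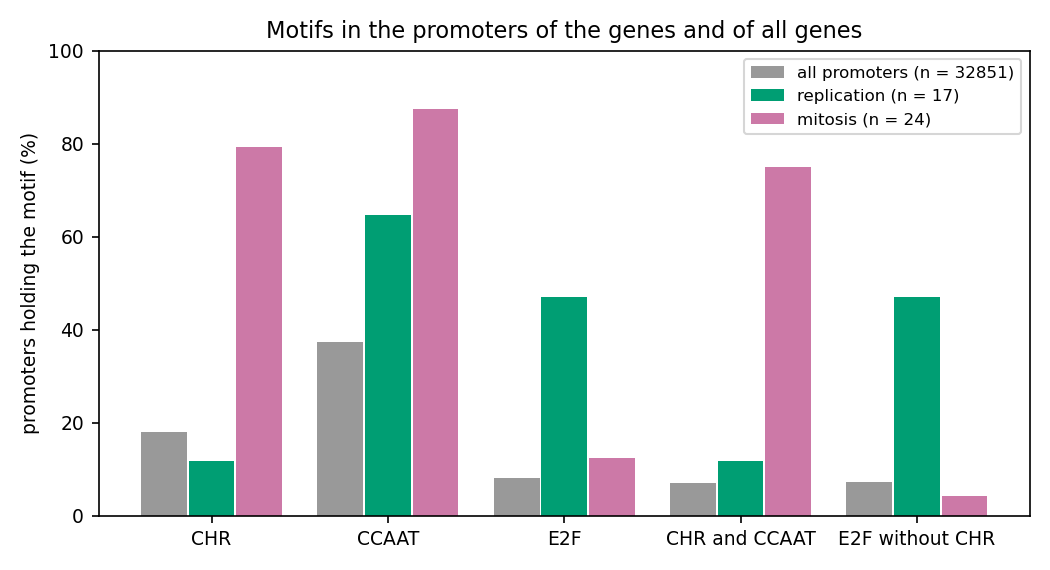
Share of promoters (y axis, percent) that hold each motif or pair of motifs (x axis), for all 32851 promoters in grey, 17 replication promoters in green and 24 mitosis promoters in pink. The pair of TTTGAA with CCAAT stood in 75.0% of mitosis promoters, 11.8% of replication promoters and 6.95% of all, while an E2F-type element without TTTGAA stood in 4.17%, 47.1% and 7.26%.

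Total counts ranged from 15043531 to 35700337 per library of the first table, and from 51211600 to 68266760 among the cilengitide libraries. Values are CPM, the counts of a gene relative to the library's total after TMM scaling within each table, so levels are not compared across tables. In the first table the libraries were parted into a lower and an upper library set by the balance of GC-rich and GC-poor genes. The cut was made at the widest gap in this balance, 1.54 on the log2 scale against 0.39 for the next widest. The lower set held 4 WT and 5 Col5a1CKO libraries at day 14. The upper set held the other 3 and 2, and every library of the fibroblast and day 19 groups. No such gap was seen in the cilengitide table, where the widest was 0.22. There the GC-rich minus GC-poor level ran from -0.55 to -0.20 in vehicle-treated Col5a1CKO wounds. It lay below the -0.03 to 0.13 of WT wounds and the -0.17 to 0.12 with cilengitide. The part of this balance in the cell cycle values was not tested. Col5a1, the deleted gene, ranged from 347 to 2386 CPM in WT wounds against 170 to 663 CPM in Col5a1CKO wounds at day 14, from 515 to 5425 and 617 to 1092 CPM at day 19, and from 449 to 2657 and 252 to 1319 CPM with vehicle. These ranges overlapped in each pair. At day 19 the WT wound b stood above the other 2 in Mki67, with 387 CPM against 114 and 135 CPM. Among the vehicle-treated Col5a1CKO wounds, number 3 had the lowest mean of the mitosis genes, 4.21 against 4.70 to 5.07 on the log2(CPM + 1) scale. Per the study's methods, replicates are separate biological samples.

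Per length, the most abundant of the genes was Pcna, the sliding clamp of the replication fork, with a median of 50.2 RPKM (range 26.6 to 141) over the 23 libraries of the first table. Ube2c, an enzyme that marks mitotic proteins for destruction, followed at 30.4 RPKM (5.25 to 81.5), then Rrm1 of ribonucleotide reductase at 22.2 RPKM and Top2a, which untangles DNA, at 22.1 RPKM. The lowest were Cenpf of the kinetochore at 2.34 RPKM, Mcm10 at 1.78 RPKM and the licensing factor Cdc6 at 1.12 RPKM (0.0161 to 2.97). Every neighbouring pair named here overlapped in range, so only genes far apart in this order differ beyond their spread. Both classes were found at the top and at the bottom. The order held over all libraries and not in every group: the median of Ccne2 was 12.2 RPKM in WT wounds at day 14 and 1.75 RPKM at day 19, where Cenpf had 2.34 RPKM, and Top2a was above Rrm1 at day 19. The day 14 WT wounds span both library sets, with 36.8 to 74.4 CPM of Ccne2 in the lower and 6.32 to 10.1 CPM in the upper. All day 19 libraries are in the upper set.

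**Figure D2:**
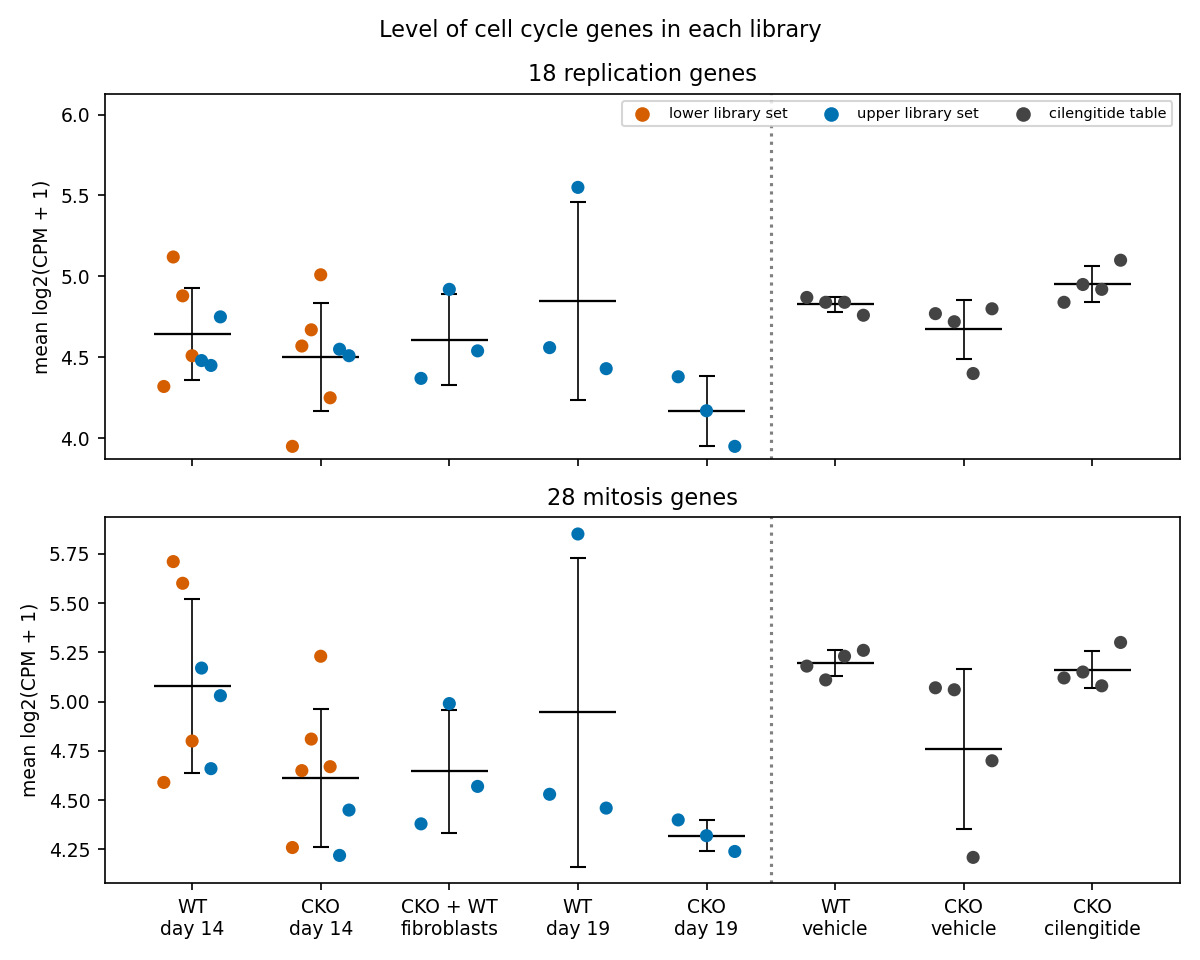
Mean log2(CPM + 1) of the 18 replication genes (top) and the 28 mitosis genes (bottom) in every library, by group (x axis), with the group mean and SD as bars and points coloured by library set. The cilengitide table, right of the dotted line, was normalized separately. Mitosis genes ranged from 4.59 to 5.71 in WT and from 4.22 to 5.23 in Col5a1CKO wounds at day 14, and from 5.11 to 5.26 and 4.21 to 5.07 with vehicle.

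The comparison of vehicle-treated Col5a1CKO with WT wounds asks how loss of type V collagen from fibroblasts changes the healing wound. Mki67, the common marker of cycling cells, stood at 187, 167, 190 and 232 CPM in the WT wounds and at 138, 114, 59.4 and 80.3 CPM in the Col5a1CKO wounds. All 4 Col5a1CKO values lay below all 4 WT values. It fell by 1.0 on the log2 scale (SE 0.27; adjusted p = 0.0176 by the quasi-likelihood test of edgeR). Cenpf, a kinetochore protein, stood at 43.9, 38.4, 47.2 and 51.0 CPM in WT and at 31.2, 27.8, 13.9 and 17.8 CPM in Col5a1CKO, again without overlap. It fell by 1.01 (SE 0.26; adjusted p = 0.016). These were the 2 genes of 46 called lower at an adjusted p under 0.05 and a change of at least 2-fold, and 0 were called higher. Of all 15434 genes tested, 13.4% were called lower and 17.5% higher, so the share of cell cycle genes called was below that of all genes in both directions. Mki67 and Cenpf lie at the 2-fold limit, and with the size factors of DESeq2 (in edgeR or in DESeq2 itself) or with all 3 groups in 1 fit no gene of the 46 passed it. Without the Col5a1CKO wound 3 the changes of Mki67 and Cenpf were -0.81 (adjusted p = 0.038) and -0.82 (adjusted p = 0.037).

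By adjusted p alone, with no minimum fold, 12 of the 46 were lower and 1 was higher in vehicle-treated Col5a1CKO wounds, beside 24.5% of all genes lower and 23.8% higher. The count of lower genes is near that background. The helicase genes Mcm2, Mcm4, Mcm5, Mcm6 and Mcm7 were 5 of the 12, a complex singled out here after its values were seen. Without the Col5a1CKO wound 3 only Mcm5 and Mcm7 of the 6 passed (adjusted p = 0.00785 and 0.0258), while Mcm2, Mcm4 and Mcm6 had adjusted p of 0.08, 0.123 and 0.0634. Their fitted changes and that of Mcm3 lay between -0.77 and -0.39 with a median of -0.58 on the log2 scale, while the median of all 18 replication genes was -0.17 and that of all genes tested 0.02. Mcm5 stood at 54.0, 55.4, 49.1 and 49.1 CPM in WT and at 33.3, 32.7, 19.3 and 38.8 CPM in Col5a1CKO. The groups did not overlap, and the change was -0.76 (SE 0.20; adjusted p = 0.0168). Mcm7 stood at 57.8 to 63.9 CPM in WT wounds against 25.1 to 44.4 CPM in Col5a1CKO, a change of -0.77 (SE 0.18; adjusted p = 0.0104). The summed level of the 6 helicase genes was 323 to 350 CPM in WT wounds against 161 to 263 CPM in Col5a1CKO wounds.

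The other replication genes spread on both sides of 0. E2f1, which activates S phase genes, was the 1 gene of the 46 that was higher. It stood at 13.6, 10.9, 11.1 and 9.14 CPM in WT and at 19.8, 21.1, 18.9 and 19.5 CPM in Col5a1CKO wounds. All Col5a1CKO values lay above all WT values, with a rise of 0.81 (SE 0.14; adjusted p = 0.00301). Cyclin E1 (Ccne1), which starts S phase with Cdk2, had 5.91 to 8.97 CPM in WT wounds against 9.46 to 13.3 CPM in Col5a1CKO, a difference of 0.49 that missed the threshold (adjusted p = 0.0542). Pcna (difference 0.05), Rrm2 of ribonucleotide reductase (0.02) and thymidine kinase Tk1 (-0.27) did not pass the test, with adjusted p of 0.799, 0.952 and 0.277.

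Among the mitosis genes, 24 of 28 had a negative fitted change, with a median of -0.33, and 7 passed by adjusted p alone. Besides Mki67 and Cenpf these were Cdc20, the activator of the anaphase-promoting complex, Cdca8 of the chromosomal passenger complex, the checkpoint kinases Ttk and Bub1b, and Cdca3, a trigger of mitotic entry. Cdca8 had the smallest adjusted p of the 28: 32.7, 29.3, 34.4 and 32.5 CPM in WT against 19.3, 19.6, 11.9 and 18.8 CPM in Col5a1CKO, a fall of 0.91 (SE 0.17; adjusted p = 0.00425). Cdc20, whose promoter is shown above, stood at 43.6 to 51.4 CPM in WT wounds against 14.0 to 31.7 CPM in Col5a1CKO and fell by 0.95 (adjusted p = 0.0156). Neither gene overlapped between the groups. Cdk1, the mitotic kinase itself, had 40.3 to 41.6 CPM in WT wounds against 28.3 to 52.4 CPM in Col5a1CKO, a difference of 0.07 (adjusted p = 0.769), and the WT range lay inside the Col5a1CKO range. Plk1, Aurkb, Birc5 and Foxm1 differed by -0.39, -0.54, -0.30 and -0.20 and did not pass, with adjusted p from 0.102 to 0.54. Without the Col5a1CKO wound 3, 8 of the 46 were lower and 1 higher by adjusted p alone, beside 20.4% and 19.2% of all genes, with medians of -0.07 for replication and -0.20 for mitosis. Without WT wounds 1 to 4 the counts of lower genes were 9, 10, 8 and 9, beside 21.2%, 21.1%, 19.8% and 19.9% of all genes. Without Col5a1CKO wounds 1, 2 and 4 the counts were 13, 14 and 7, beside 21.6%, 22.9% and 25.2%.

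The cell types of these wounds differed too. Of 10 keratinocyte markers, 6 were called lower and 0 higher, with a summed level of 60317 to 97659 CPM in WT wounds against 149 to 11863 CPM in Col5a1CKO. Of 12 markers of hair follicle matrix and shaft, 11 were called lower, from a summed 66.6 to 6339 CPM to 3.04 to 38.0 CPM, and Krt25, Krt31, Krt35, Hoxc13 and Shh were at 0 counts in at least 1 Col5a1CKO library. Of 11 leukocyte markers tested, 8 were called higher and 1 lower, with sums of 415 to 2875 and 5039 to 48519 CPM. Of 10 fibroblast markers and 8 endothelial markers, 3 each were called higher, with sums of 10926 to 62822 and 29964 to 134438 CPM, and of 61.7 to 425 and 438 to 1031 CPM, and no marker of leukocytes, fibroblasts or endothelial cells was at 0 in a library. Of 10 skeletal muscle markers 0 were called, and of 4 adipocyte markers tested 1 was lower. The part of these shifts in the cell cycle values was not tested.

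Further genes of the pathway were counted in the same comparison. Of 40 other replication genes, 0 were called higher and 4 lower: Pold2 and Prim1 of the DNA polymerases (-1.21 and -1.24), the methyltransferase Dnmt1 (-1.01) and E2f2 (-1.13). Of 49 other mitosis genes tested, 0 were called in either direction. By adjusted p alone 10 were lower, led by the condensin subunit Ncapd2 (-0.90), and 2 higher, Ncapg2 and Plk4 (both 0.44). Of all genes tested, 13.4% were called lower and 17.5% higher, and 24.5% and 23.8% were so by adjusted p alone. Calls by the 2-fold rule in these lists of replication and mitosis genes were thus no more frequent than over all genes. By adjusted p alone 11 of the 40 other replication genes were lower and 0 higher, a share of lower genes near that background. Among 8 G1 cyclins and kinases, Myc (-1.19) and cyclin D1 (Ccnd1, -1.09) were called lower. Among 14 cell cycle inhibitors, Gadd45a (3.04), Cdkn2d (1.41) and Btg2 (1.20) were called higher and Cdkn2b (-2.11) lower.

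**Figure D3:**
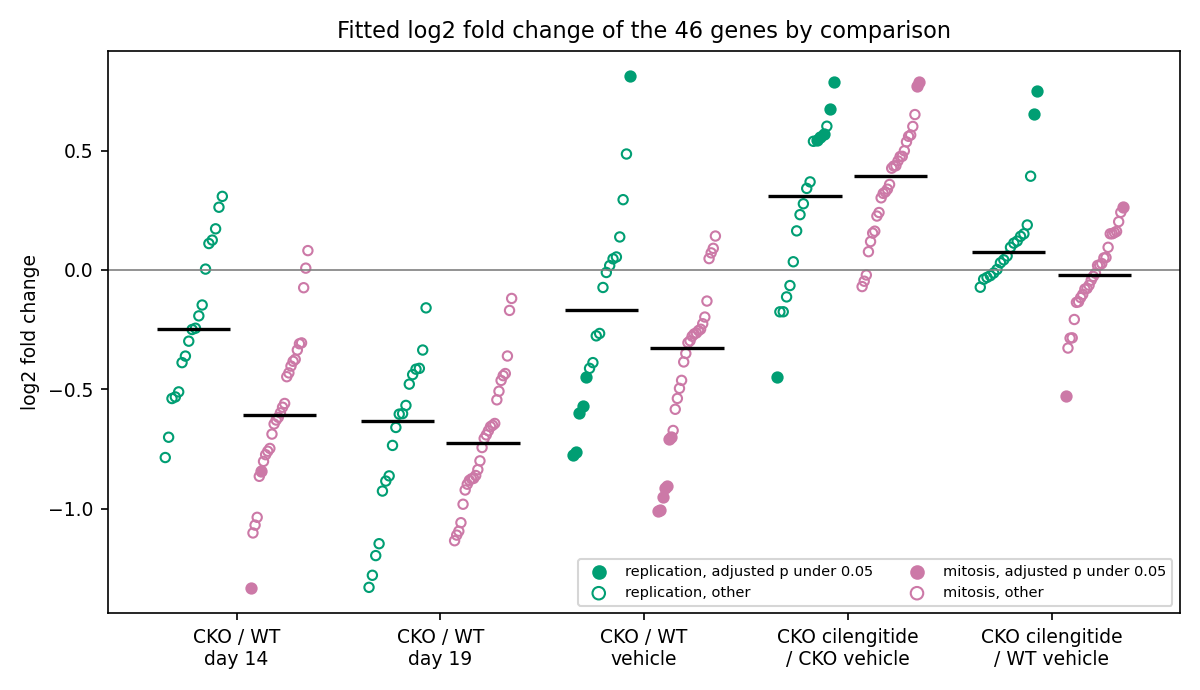
Fitted log2 fold change (y axis) of each of the 46 genes in 5 comparisons (x axis; CKO is Col5a1CKO), replication genes in green and mitosis genes in pink, each set sorted by value with its median as a bar; filled points have an adjusted p under 0.05 with no minimum fold. The medians of both classes lie below 0 in the 3 comparisons of Col5a1CKO with WT, at -0.25 and -0.61 at day 14, -0.63 and -0.72 at day 19 and -0.17 and -0.33 with vehicle, and above 0 for cilengitide against vehicle in Col5a1CKO wounds, at 0.31 and 0.39.

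At day 14 in the first table, the wounds of Col5a1CKO mice were compared with those of WT mice, neither given fibroblasts. Ttk, the kinase that starts the spindle checkpoint, was the only gene of the 46 called, and it was lower. It stood at 26.8, 65.7, 18.8 and 33.6 CPM in the 4 WT libraries of the lower set and at 22.8, 16.7 and 17.7 CPM in the 3 of the upper set. In Col5a1CKO it stood at 10.2, 11.2, 11.6, 18.7 and 15.4 CPM in the lower set and at 4.10 and 9.97 CPM in the upper set. The groups overlapped by 1 Col5a1CKO library of 18.7 CPM, and within each set they did not overlap. Ttk fell by 1.33 (SE 0.37; adjusted p = 0.034), with -1.45 (adjusted p = 0.036) within the lower set and -1.34 (adjusted p = 0.104) within the upper set. Without the WT library b, of 65.7 CPM, the change was -0.97 with an adjusted p of 0.0578, and no gene of the 46 was called without the WT library d or the Col5a1CKO library a, b, c or f either. In those fits 1.31% to 2.50% of all genes were called lower. By adjusted p alone, Cdca3 fell as well, by 0.84 (SE 0.26; adjusted p = 0.0469), from 23.3 to 46.1 CPM in WT to 11.5 to 37.4 CPM in Col5a1CKO, ranges that overlapped. Over all 14367 genes tested, 2.71% were called lower and 5.57% higher, and 4.34% were lower by adjusted p alone; 1 of 46 and 2 of 46 are near these shares, and 0 of 46 were called higher.

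The other mitosis genes were mostly on the same side without passing. Of the 28, 26 had negative fitted changes, with a median of -0.61, and of the 18 replication genes 12 did, with a median of -0.25; the median of all genes was -0.03. The largest differences after Ttk were Cenpf (-1.10, adjusted p = 0.0954), Top2a (-1.07, adjusted p = 0.097) and the kinetochore gene Nuf2 (-1.04, adjusted p = 0.128). Mki67 ranged from 105 to 335 CPM with a median of 160 CPM in WT and from 44.7 to 204 CPM with a median of 90.7 CPM in Col5a1CKO. These ranges overlapped from 105 to 204 CPM, and the difference of -0.77 (SE 0.35) had an adjusted p of 0.163. E2f1 had the largest positive value, 0.31 (adjusted p = 0.433), followed by the licensing factor Cdt1 (0.26) and Cdc6 (0.17).

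The genes also differed between the library sets within a group. Within the WT group at day 14, the mean log2 level in the upper set minus that in the lower set rose with the GC content of the longest transcript across the 46 genes (Spearman rho 0.80), and so it did in the Col5a1CKO group (0.87). The sets were parted by the GC balance of these same libraries, so a rise with GC content was built in. These points share libraries and depth, and the values are descriptions. The sets differ in cell type markers too: in WT the keratinocyte sum was 101569 to 154036 CPM in the upper set and 30730 to 34059 CPM in the lower, and the fibroblast sum 9578 to 10559 and 59056 to 105484 CPM, without overlap. In Col5a1CKO the keratinocyte sums overlapped, at 278 and 58450 CPM in the upper set and 63.1 to 27330 CPM in the lower. GC content and cell type cannot be told apart here. The 10 genes poorest in GC, at 36.3% to 44.2%, were lower in the upper set by a median of 1.28 in WT and 0.99 in Col5a1CKO, written as differences of -1.28 and -0.99. The 10 richest, at 52.9% to 58.8%, were higher by 0.99 and 0.39. Cyclin E2 (Ccne2), at 36.3% the poorest, stood at 36.8 to 74.4 CPM in the lower WT libraries and at 6.32 to 10.1 CPM in the upper ones. With the set as a covariate, 4 of the 46 were called lower at day 14 (Ttk -1.43, Cenpf -1.16, Top2a -1.13 and Nuf2 -1.02), beside 3.88% of all genes, and 11 were lower by adjusted p alone, beside 10.8%. Within the lower set 4 were called lower (Ttk, Cdk1, Top2a and Nuf2), beside 2.92% of all genes, and within the upper set, of 3 against 2 libraries, 0 were, beside 0.412%. The mitosis median was -0.69 within the lower and -0.52 within the upper set, and the replication median -0.32 and 0.03.

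**Figure D4:**
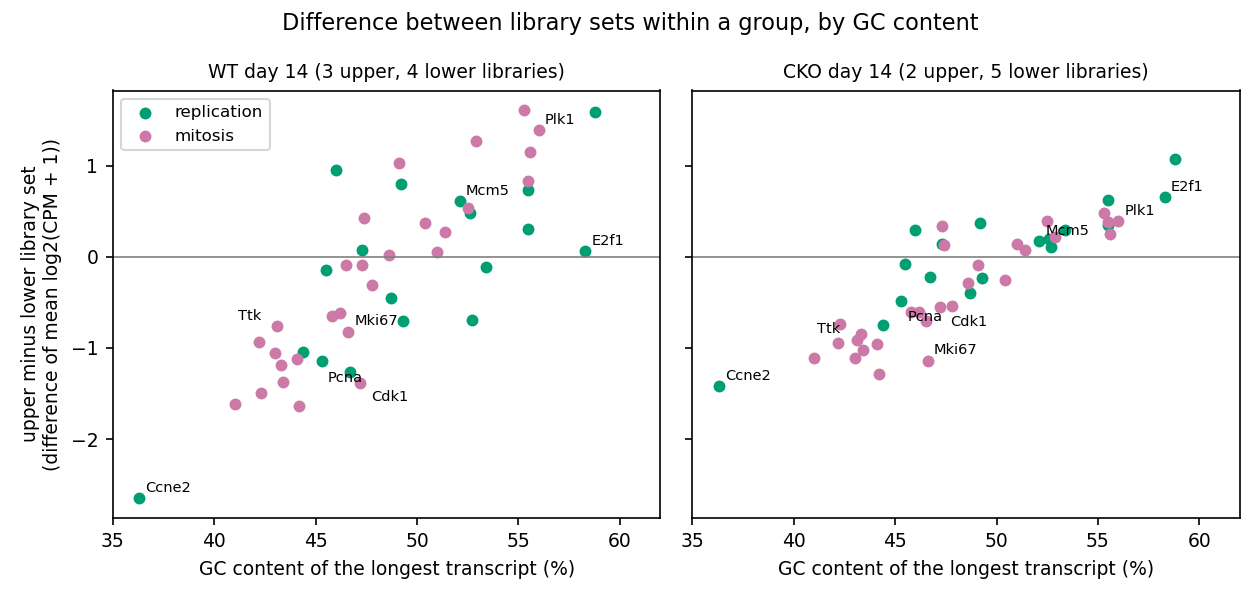
Difference of mean log2(CPM + 1) between the upper and the lower library set (y axis) within the WT group (left) and the Col5a1CKO group (right) at day 14, against the GC content of each gene's longest transcript (x axis, percent), with replication genes in green and mitosis genes in pink. GC-poor genes such as Ccne2, at 36.3%, were lower in the upper set, by -2.65 in WT and -1.42 in Col5a1CKO, and GC-rich genes were mostly higher. The sets were parted by GC balance, so this direction was built in.

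Keratinocyte markers at day 14 summed to 30730 to 154036 CPM in WT wounds against 63.1 to 58450 CPM in Col5a1CKO, with 0 of 10 called. Markers of hair follicle matrix and shaft summed to 31.8 to 7586 and 8.21 to 80.0 CPM, with 6 of 10 tested called lower, and Shh was at 0 in all Col5a1CKO libraries. Leukocyte markers summed to 1767 to 11722 and 3344 to 22791 CPM, with 5 of 11 called higher. Of fibroblast markers 3 of 10 were called higher and of endothelial markers 4 of 8, while 0 of 10 skeletal muscle and 0 of 5 adipocyte markers tested were called. Of 14 cell cycle inhibitors Cdkn2b was called lower (-1.46, adjusted p = 0.0373), and of 40 other replication genes and 49 other mitosis genes 0 were called. The part of these cell type shifts in the cell cycle values was not tested.

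At day 19, all 46 genes had negative fitted changes in Col5a1CKO against WT wounds, and 0 of 46 were called. Of 15135 genes tested, 0.0198% were called higher and 0 lower, so hardly any gene passed in the test of edgeR. At an unadjusted p under 0.05, 12 of the 46 were lower and 0 higher, beside 12.3% and 11.8% of all genes. DESeq2 called 2 of the 46 lower, Tk1 and Mcm7, beside 4.89% of all genes, a share near that background. Tk1 stood at 16.1, 36.2 and 12.4 CPM in WT and at 9.36, 7.80 and 7.80 CPM in Col5a1CKO, a difference of -1.28 (SE 0.39; adjusted p = 0.15). Mcm7 stood at 52.0, 114 and 38.7 CPM in WT and at 29.7, 27.8 and 25.9 CPM in Col5a1CKO, a difference of -1.20 (SE 0.38; adjusted p = 0.154). Neither gene overlapped between the groups, and in both the WT wound b was the highest. Mcm10, an initiation factor, had the largest difference, -1.33 (adjusted p = 0.238), and Mcm5 differed by -1.15 (adjusted p = 0.182). The helicase genes had a median of -0.80, the replication class -0.63 and the mitosis class -0.72, beside -0.01 for all genes.

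Much of the day 19 difference came with the WT wound b. Mki67 stood at 114, 387 and 135 CPM in WT and at 116, 101 and 82.3 CPM in Col5a1CKO, so that 1 Col5a1CKO wound lay above the lowest WT wound. Without the WT wound b the medians were -0.33 for replication and -0.19 for mitosis, and 16 of 18 and 20 of 28 genes were negative; Mcm7 then differed by -0.68 and Tk1 by -0.76, with adjusted p of 0.164 and 0.169. Hair follicle markers summed to 366 to 7227 CPM in the 3 WT wounds and to 6.97 to 15.7 CPM in the Col5a1CKO wounds, with 0 of 12 called, and Krt27, Krt31 and Shh were at 0 in at least 1 Col5a1CKO wound. Keratinocyte markers summed to 14230 to 25623 and 6686 to 21030 CPM, with 0 of 10 called. No marker list had a gene called at day 19, and the part of these markers in the cell cycle values was not tested.

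Across the 3 comparisons of Col5a1CKO with WT, which share no library, 22 of 28 mitosis genes and 7 of 18 replication genes had a negative fitted change in all 3, and 0 of 46 had a positive one in all 3. These counts rest on the signs of fitted values, few of which passed a test. The same share over all genes was not computed, so these counts have no background beside them. E2f1 was positive at day 14 (0.31) and with vehicle (0.81) and negative at day 19 (-0.48, adjusted p = 0.201). The term for a genotype difference that itself differs between day 14 and day 19 had 0 of 46 genes called in either direction, with the same share, 0, of 15954 genes. The smallest unadjusted p were those of Mcm6 and E2f1, both lower, with adjusted p of 0.805 and 0.848, and the replication median of this term was -0.68 beside -0.24 for mitosis. Without the WT wound b at day 19 these medians were -0.07 and 0.36.

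The transfer of WT fibroblasts into Col5a1CKO wounds asks whether the missing matrix source changes healing. Against Col5a1CKO wounds without fibroblasts at day 14, 0 of 46 genes were called higher or lower, and 0 of 15659 genes of any kind were. With no adjustment, 4 genes had a p under 0.05 and a higher level, Birc5 of the passenger complex (0.63), Plk1 (0.76), Foxm1 (0.67) and Cdt1 (0.79), and Ccne2 was lower (-1.40), all with an adjusted p of at least 0.365, beside 1.28% of all genes higher and 11.5% lower. Birc5 stood at 24.5, 31.5 and 25.1 CPM after transfer, all above the 10.8 to 19.8 CPM of the 7 wounds without fibroblasts. Foxm1 stood at 19.6, 33.3 and 23.1 CPM against 7.80 to 21.3 CPM, which overlapped. All 3 injected wounds are in the upper library set and only 2 of the 7 others are. Within that set the mitosis median was 0.44 in place of -0.10, 27 of 28 mitosis genes were positive, and Ccne2 stood at 5.33, 11.7 and 6.30 CPM against 7.18 and 9.44 CPM, which overlapped. The replication median was 0.12 in both, and 0 of 46 were called within the set.

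Against WT wounds at day 14, the injected wounds had 0 of 46 genes called higher or lower, beside 3.77% and 2.06% of 15316 genes. E2f1 was nearest to passing, at 20.3, 22.9 and 19.8 CPM against 10.3 to 15.3 CPM in the 7 WT wounds, without overlap (0.90, SE 0.28; adjusted p = 0.0809). Within the upper set its difference was 0.89 with an adjusted p of 0.00245, short of 2-fold; 25.0% of all genes were higher by adjusted p alone in that fit. Ttk differed by -1.50 (adjusted p = 0.121) and Ccne2 by -2.05 (adjusted p = 0.195). The medians were 0.01 for replication and -0.40 for mitosis, and within the upper set 0.18 and -0.08. Keratinocyte markers summed to 11891 to 29116 CPM in the injected wounds, with 0 of 10 called against either group, and leukocyte markers to 10143 to 11711 CPM, with 5 of 11 called higher than in WT. Ccnd3 (1.59) and Ccnd2 (1.14), the cyclins D of early G1, were called higher than in WT, as were Gadd45a (1.47) and Btg2 (1.78) of the inhibitors; the part of the markers in the cell cycle values was not tested.

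From day 14 to day 19 in WT wounds, 0 of 46 genes were called, beside 1.5% of 15180 genes higher and 4.25% lower. E2f1 stood at 23.8, 25.7 and 23.2 CPM at day 19 and at 10.3 to 15.3 CPM at day 14, without overlap. Its difference of 1.01 (SE 0.29) had an adjusted p of 0.0606, and within the upper set, where day 14 held 11.9 to 12.9 CPM, it was called higher by 1.08 (adjusted p = 0.00562), beside 14.2% of all genes. Mcm3 differed by 0.94 (adjusted p = 0.112), and 6 of 6 helicase genes were positive with a median of 0.48. Without the WT wound b the replication median was -0.09 in place of 0.39 and the mitosis median -0.57 in place of -0.09. Keratinocyte markers summed to 14230 to 25623 CPM at day 19, below all day 14 libraries of 30730 to 154036 CPM, with 1 of 10 (Dsg3) called lower, and 2 of 8 endothelial markers were called higher. The other marker lists had 0 called, and the part of the markers in the cell cycle values was not tested.

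In Col5a1CKO wounds, Ccne2 was the 1 gene of 46 called lower at day 19 than at day 14, and 0 were called higher; of 15327 genes, 3.85% were called lower and 1.87% higher. Ccne2 stood at 5.60, 4.68 and 4.84 CPM at day 19 and at 7.18 to 31.7 CPM at day 14, without overlap, and fell by 2.02 (SE 0.52; adjusted p = 0.0429). By adjusted p alone Tyms, which makes thymidylate, fell by 0.94 (adjusted p = 0.0281) and Pcna by 0.91 (adjusted p = 0.0288), so that 3 of 46 were lower beside 5.12% of all genes. All day 19 libraries are of the upper set. Within it the day 14 values of Ccne2 were 7.18 and 9.44 CPM, the differences were -0.67 for Ccne2, -0.71 for Tyms and -0.48 for Pcna, and none passed (adjusted p = 0.183, 0.145 and 0.216). Mki67 differed by -0.14 over all libraries and by 0.88 within the upper set (adjusted p = 0.871 and 0.146). The licensing inhibitor Gmnn (-1.23) and the origin recognition subunit Orc6 (-1.26) were among 4 of 40 other replication genes called lower, and Cenpk (-2.46) and Spc25 (-1.51) were the 2 of 49 other mitosis genes called lower. Of the cell type markers, 1 of 10 fibroblast markers (Col1a1) and 3 of 8 endothelial markers were called higher and 0 in the other lists; their part was not tested.

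Cilengitide was compared with vehicle in Col5a1CKO wounds to see whether blocking alpha v integrins changes the wound. By the 2-fold rule 0 of 46 genes were called, beside 6.48% of 15563 genes higher and 6.59% lower. By adjusted p alone 7 of 46 were higher and 1 lower, beside 12.7% and 12.2% of all genes, again a share near the background for the higher ones. The 7 were Mcm2, Mcm3, Mcm4, Mcm5, Mcm7, Cdc20 and Cdca8, and the 1 lower gene was E2f1. This comparison shares the vehicle-treated Col5a1CKO wounds with the comparison to WT above, so an unusual level in those 4 wounds enters both with opposite sign, and the values are given side by side.

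Mcm5 stood at 47.5, 52.6, 59.2 and 56.3 CPM with cilengitide, above the 19.3 to 38.8 CPM with vehicle and around the 49.1 to 55.4 CPM of WT wounds. It rose by 0.79 over vehicle (SE 0.21; adjusted p = 0.0289) and differed from WT by 0.06 (adjusted p = 0.626). The helicase genes together summed to 304 to 368 CPM with cilengitide and 161 to 263 CPM with vehicle, and their fitted changes lay between 0.54 and 0.79. Mcm6 was the 1 of 6 that did not pass. Cdc20 stood at 43.8, 42.9, 41.3 and 43.7 CPM, above the 14.0 to 31.7 CPM with vehicle, and rose by 0.79 (SE 0.24; adjusted p = 0.0443). Cdca8 stood at 29.5 to 30.6 CPM against 11.9 to 19.6 CPM and rose by 0.77 (SE 0.16; adjusted p = 0.0152). Mki67 stood at 153, 160, 131 and 175 CPM and overlapped the vehicle wounds by 1 library; its difference of 0.65 (SE 0.25) had an adjusted p of 0.0942.

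E2f1 stood at 13.3, 15.3, 12.8 and 17.2 CPM with cilengitide, below all 4 vehicle values of 18.9 to 21.1 CPM, and fell by 0.45 (SE 0.12; adjusted p = 0.0333). The medians were 0.31 for replication and 0.39 for mitosis beside -0.06 for all genes, and 25 of 28 mitosis genes were positive. Without the vehicle wound 3, which was low in most of these genes, both medians were 0.20, and 4 genes were higher and 0 lower by adjusted p alone, beside 7.39% and 5.05% of all genes: Mcm5, Mcm7, Cdc20 and Cdca8. Leaving out cilengitide wounds 1 to 4 in turn left 3, 2, 1 and 3 genes higher by adjusted p alone. Of all genes, 7.86%, 8.54%, 8.52% and 11.5% were higher in these fits. Without vehicle wounds 1, 2 and 4 the counts were 11, 8 and 5, beside 12%, 11.4% and 18.5% of all genes.

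**Figure D5:**
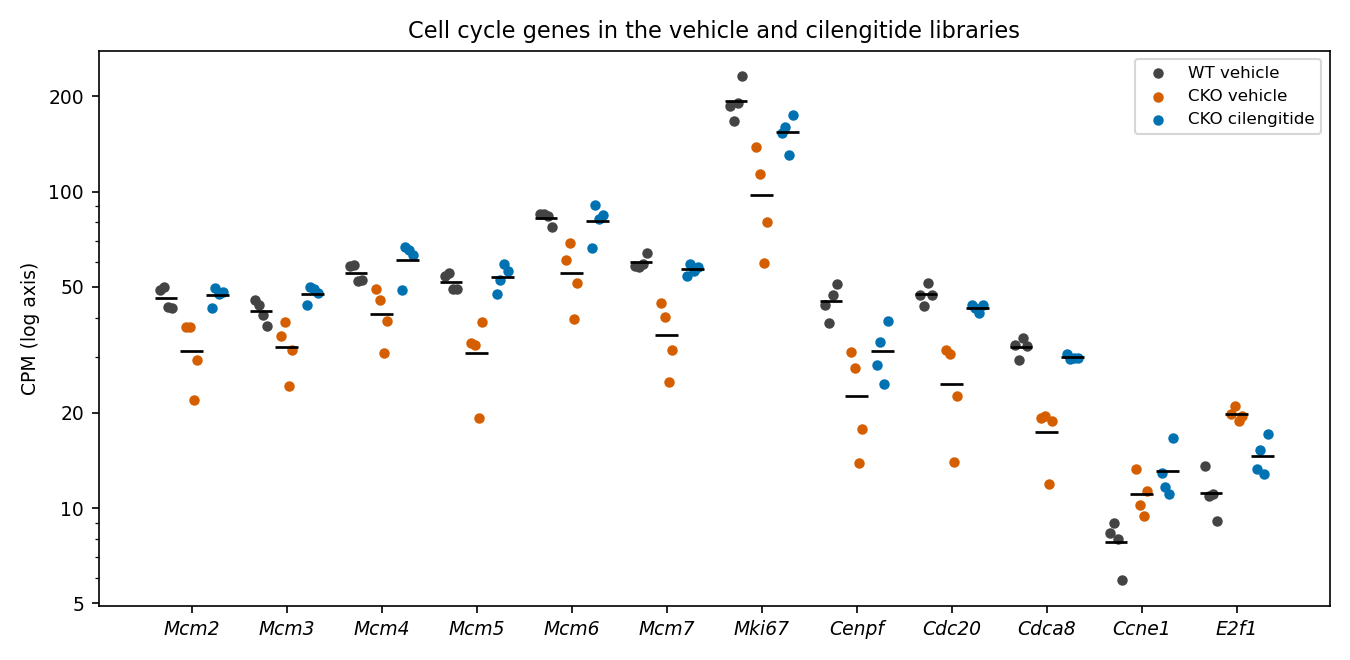
CPM (log axis) of 12 genes in each of the 4 WT vehicle (grey), 4 Col5a1CKO vehicle (orange) and 4 Col5a1CKO cilengitide (blue) wounds, with the group mean as a bar. The group means of the helicase genes, Cdc20 and Cdca8 are lower in orange than in grey and blue. Single orange points overlap grey ones for Mcm3 and blue ones for Mcm4 and Mcm6. E2f1 lies higher in orange, at 18.9 to 21.1 CPM, and Ccne1 lies above WT in both Col5a1CKO groups.

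Against vehicle-treated WT wounds, cilengitide-treated Col5a1CKO wounds had 0 of 46 genes called by the 2-fold rule, beside 5.15% of 15514 genes higher and 3.43% lower. By adjusted p alone 3 were higher and 1 lower, beside 9.53% and 11.0% of all genes. Ccne1 stood at 12.9, 11.7, 11.1 and 16.7 CPM against 5.91 to 8.97 CPM, without overlap, and rose by 0.75 (SE 0.18; adjusted p = 0.0272). Rrm2 stood at 49.3, 57.3, 74.1 and 64.6 CPM against 33.5 to 45.4 CPM and rose by 0.65 (adjusted p = 0.0254). Cdk1 rose by 0.26 (SE 0.07; adjusted p = 0.0426), from 40.3 to 41.6 CPM to 44.7 to 52.5 CPM, and Cenpf fell by 0.53 (adjusted p = 0.0458). The medians were 0.08 for replication, -0.02 for mitosis and -0.01 for all genes. None of the 4 passed without WT wound 3 or 4 or without cilengitide wound 2, 3 or 4. Few genes of any kind passed in those fits. By adjusted p alone 0.969% of all genes were higher and 2.44% lower without WT wound 3, and 3.70% and 4.76% without WT wound 4. Without cilengitide wound 2, 3 or 4, at most 0.0191% were higher and 0 lower.

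Markers of other cell types moved along with cilengitide. Of 10 keratinocyte markers 5 were called higher than with vehicle, with sums of 32822 to 67527 CPM against 149 to 11863 CPM, and of 11 tested follicle markers 7, with 143 to 414 CPM against 3.04 to 38.0 CPM. Of 11 leukocyte markers 6 were called lower, with 4529 to 8815 CPM against 5039 to 48519 CPM. No keratinocyte or leukocyte marker was at 0 in a library of these groups. Their part in the cell cycle values was not tested. Among the wider pathway, E2f8, a repressor of late S phase, was the 1 of 40 other replication genes called higher (1.27), and Lig1, Pold2 and Uhrf1 were among 8 higher by adjusted p alone. Of 49 other mitosis genes 5 were higher by adjusted p alone, led by the phosphatase Cdc25b (0.68). Over all genes, 6.48% were called higher and 12.7% were higher by adjusted p alone. Cdkn2b was called higher (1.63) and Cdkn2d lower (-1.06).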

How the data were processed

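Raw counts per gene were deposited by the authors as 2 tables. Per the study's methods, 50-base single-end reads of a strand-specific library were aligned with HISAT2 to mouse build mm9 and counted over RefSeq exons; whether this covers the cilengitide libraries is not given in the sources used here. Of several rows of a symbol the one with the largest total was kept, and rows naming no gene (0.0492% and 5.91e-05% of counts) were left out. Genes passing filterByExpr (minimum count 10) were tested with edgeR 4.0.16 (TMM, quasi-likelihood F-test, Benjamini-Hochberg adjustment over all genes tested) on the groups compared, in R 4.3.3, with DESeq2 1.42.0 as an alternative; genes were called at a 2-fold change or more if the adjusted p was below 0.05. The fits were checked on simulated counts. RPKM was computed here from the counts and the lengths of the table. Promoters were read from RefSeq on GRCm38.p6, another build than that of the counts; for 36 of 41 the bases after the start were found in a transcript, Mcm6 not among them. The genes and lists were chosen with earlier results of these data known. Genes named are 16 fixed by role (Mki67, Top2a, Cdk1, Ccnb1, Plk1, Aurkb, Birc5, Foxm1, Pcna, Mcm2, Mcm5, Rrm2, Tk1, Ccne1, Ccne2, E2f1) and, per comparison, up to 3 called per direction by adjusted p, 3 with the largest change and 3 opposite to the median; others were named after their values were seen. Replicates with a letter were not paired, since letters did not mark shared deviations. No 2 replicates agreed within sampling noise. The authors used DESeq2 for their own comparisons.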

Additional observations from a re-analysis of the deposited data

Results flagged for a closer look

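In 3 of 90 group values checked, 1 library stood apart from the rest of its group by Dixon's criterion. Chance alone sets apart about 1 group in 20. The groups of 3 libraries, that is the fibroblast group and both day 19 groups, were not checked. Cyclin E1 (Ccne1) was 29.6 CPM in the WT wound b at day 14, where the nearest other wound had 13.5 CPM. Birc5 was 10.8 CPM in the Col5a1CKO wound a at day 14, where the nearest had 16.7 CPM. Cyclin B1 (Ccnb1) was 6.72 CPM in the vehicle-treated Col5a1CKO wound 3, where the nearest had 14.9 CPM. The causes were not tested.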

How the results depend on the processing

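Counts of the 46 genes called changed with the settings as follows, and the cause was not tested unless stated. For Col5a1CKO against WT at day 14 (1 called), 2 were called by adjusted p alone, 0 with library size only, 3 with all groups in 1 fit, 4 with the library set as a covariate, 4 within the lower set and 0 within the upper set, and 0 to 3 when a library was left out. All of these calls were lower. Of all genes, 4.34% were lower by adjusted p alone. All groups in 1 fit called 5.64% lower, the covariate 3.88%, the lower set 2.92% and the upper set 0.412%. At day 19 DESeq2 called 2, beside 4.43% of all genes higher and 4.89% lower. For fibroblasts against Col5a1CKO the mitosis median was 0.37 with the set as a covariate and 0.44 within the upper set. For fibroblasts against WT DESeq2 called 3, beside 5.71% of all genes higher and 7.12% lower. All groups in 1 fit called 2, beside 6.36% and 6.04%. For WT day 19 against day 14 DESeq2 called 3, the size factors of DESeq2 in edgeR 1, library size only 2, all groups in 1 fit 1, the covariate 1 and the upper set 1. Of all genes these fits called, in the same order, 4.55% higher and 8.05% lower, 1.72% and 3.68%, 4.72% and 1.93%, 5.87% and 8.24%, 5.47% and 7.44%, and 14.2% and 10.1%. The replication median was 0.87 with library size only and -0.09 to 0.68 when a library was left out. For Col5a1CKO day 19 against day 14 (1 called), 3 were called by adjusted p alone and 2 by DESeq2, and 0 with no filter, all groups in 1 fit, the covariate, the upper set or any library left out (0 to 0). Of all genes, 2.71% were higher and 5.12% lower by adjusted p alone, DESeq2 called 3.20% and 7.09%, and the upper set called 0. No filter called 1.33% and 2.28%, all groups in 1 fit 0.760% and 2.04%, and the covariate 0.763% and 1.18%. With a library left out at most 0.0767% of all genes were called higher and 0.0575% lower, so hardly any gene passed there. The mitosis median was -0.03 with the covariate and 0.04 within the upper set. For vehicle-treated Col5a1CKO against WT (2 called), 13 were called by adjusted p alone, 0 by DESeq2, with its size factors or with all groups in 1 fit, and 0 to 4 when a library was left out. Adjusted p alone called 8 for cilengitide against vehicle, beside 12.7% of all genes higher and 12.2% lower. Against WT it called 4, beside 9.53% and 11.0%. The medians of the genotype by day term were -1.27 and -0.82 with library size only, and -0.84 to -0.07 and -0.47 to 0.36 when a library was left out. Mki67 reversed to 0.60 (covariate) and 0.66 (upper set) for fibroblasts against Col5a1CKO, to -0.47 (block) and -0.43 (without the WT wound b at day 19) for WT by day, to 0.81 and 0.88 (covariate, upper set) for Col5a1CKO by day, and to 0.09 (upper set) and 0.47 (without the WT wound b; range -0.54 to 0.47 when a library was left out) for the genotype by day term.

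Under a replicate block by letter, 3 genes passed for fibroblasts against Col5a1CKO, 18 for fibroblasts against WT, 9 for WT by day and 4 for Col5a1CKO by day. Of all genes the block called 9.33% higher and 7.42% lower, 9.98% and 11.8%, 5.82% and 11.3%, and 6.61% and 7.89% in these 4. The letters do not pair the samples: correlations of same-letter deviations ran from -0.62 to 0.57, and no comparison had all above 0.1. Every library was closest to its own letter only for WT by day (3 of 3), a hint from the data, not the design. Cilengitide libraries carry no shared number, so no paired fit was made. Library size only moved the median of all genes from -0.01 to -0.39 at day 19 and from 0.00 to 0.43 for WT by day. The covariate fits where 1 group lies in 1 set, and leaving out each of the 14 libraries at day 14, were chosen after seeing the data. Of 531 alternatives for 39 single-gene results, 378 kept direction and side of the threshold. Another 142 lost the threshold, 3 passed it anew and 8 reversed. Of 270 alternatives for 20 medians, 260 moved by less than the SD of library means within the groups compared. At day 19 this SD was 0.46 for replication and 0.56 for mitosis. The move of the mitosis median from -0.72 to -0.19 without the WT wound b thus counts as unchanged. Depth was lowest in the first table, and at day 19 only 3 libraries stood on each side.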
